A study of Drosophila melanogaster with 2 samples.

Results

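The regions described here are Trl peaks that lay in dense runs along the chromosome arms of Drosophila melanogaster embryos of 16 to 24 h (E16-24h). They were chosen from the positions and widths in the deposited peak list: neighbouring peaks on X, 4, 2L, 2R, 3L or 3R were joined into a chain wherever the gap between them was 10000 bp or less, and peaks under 2500 bp wide in chains of 5 or more peaks were kept. These were 952 peaks of the 5188 on the 6 arms (18.4%) and of the 5195 in the whole list. They are called member peaks below. The chains that hold them also contained 165 wider peaks, which helped to build the chains and are described only as their surroundings.

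The product of Trl (Trithorax-like) is known as GAGA factor. It has a zinc finger that contacts GAGAG-type DNA repeats and a BTB/POZ domain through which several molecules assemble. The protein is known from heat shock and homeotic gene promoters, from Polycomb response elements and from boundary elements, and it works with remodelling complexes that move nucleosomes. Because the protein forms multimers, it is known to bind DNA with several GAGA elements cooperatively.

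The list came from chromatin immunoprecipitation followed by sequencing (ChIP-seq) with the antibody KW3-Trl-D2. The study had 1 sample of immunoprecipitated DNA, labelled as replicates 1 and 2 in 1 title, and 1 sample of input chromatin of the same stage. The growth protocol names iso1 (y; bw cn sp) flies or transgenic flies without saying which gave these embryos. Chromatin of whole embryos was used, so a chain can hold peaks that are bound in different cells. No value per replicate was used here, and the read depth is unknown. Everything below is therefore a description of 1 list with no replicate check and no p-value. Positions are on build BDGP5, counted from 1, and genes are not named, since the file gives none.

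The member peaks belonged to 169 chains, which together spanned 4.99 Mb, or 4.18% of the 119.4 Mb between the first and last peak of each arm. On this small part of the genome lay 1117 peaks, 21.5% of those on the 6 arms. The density was thus 224 peaks per Mb within the chains and 35.6 per Mb outside them, a contrast that the rule itself creates. Beyond the 10 kb that the rule keeps clear on either side of a chain, the next 40 kb held 58.9 peaks per Mb, those of other chains included, against 43.4 per Mb on the arms as a whole. Short chains were the most frequent: 71 held 5 peaks, 38 held 6, 22 held 7, 12 held 8 and 9 held 9. The 17 chains of 10 or more peaks contained 174 member peaks and 29 wider ones.

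**Figure D1:**
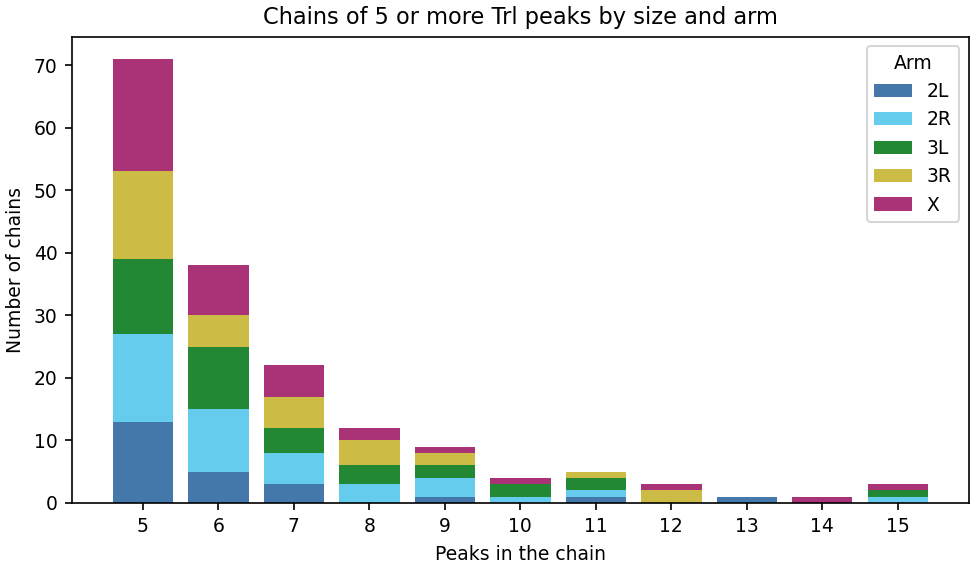
Number of chains (vertical axis) by the number of peaks in the chain (horizontal axis), stacked by chromosome arm. The 71 chains of 5 peaks are the largest class and come from 5 arms, arm 4 has no chain of this kind, and the 3 chains of 15 peaks lie on 2R, 3L and X.

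All 5 large arms held member peaks, in unequal shares. They made up 22.5% of the peaks on X (220 of 977), 21.1% on 2R (213 of 1010) and 20.7% on 3L (221 of 1069), but 14.3% on 3R (178 of 1243) and 14.0% on 2L (120 of 855). Arm 4 had 0 of 34, and its largest chain held 3 peaks. Counting error alone would allow a share of up to 8.82% if peaks were independent. Peaks of a chain become members together, so this limit is too tight and does not set arm 4 apart from the others. Chains were placed at 1.80 per Mb on 2R, 1.71 on X, 1.49 on 3L, 1.18 on 3R and 1.05 on 2L. Those on X were the most compact by median length, at 23.0 kb, against 26.8 to 29.5 kb on the other large arms.

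Along an arm the share also varied. When each arm was cut into 5 equal stretches from its first to its last peak, member peaks were 33.6% of the peaks in the middle stretch of X and 30.6% in that at its start, but 8.62% in the one before the last. On 3L the share was 30.9% in the stretch before the last and 12.0% in that at the start. On 3R it stayed between 8.57% and 17.7%.

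Most of the length of the chains lay between peaks. Their median length was 26.9 kb (quartiles 20.6 and 35.1 kb), and peaks covered a median of 37.9% of that length (quartiles 30.6 and 46.0%). Of the 1876 kb that peaks covered within the chains, member peaks contributed 67.8%. The longest chains were a chain of 14 peaks on X (2161741 to 2250619, 88.9 kb), a chain of 13 on 2L (2874091 to 2959631, 85.5 kb) and a chain of 15 on 2R (7479381 to 7554893, 75.5 kb). All 3 of the shortest were on X and held 5 peaks each. They measured 10038 bp (15191108 to 15201145), 11043 bp (21237044 to 21248086) and 11289 bp (13213247 to 13224535).

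Coverage separated chains of like size. On 2L, a chain of 5 peaks from 470158 to 492539 was covered over 71.2% of its length, but 4 of its peaks exceeded the width limit and only 1 was a member peak. On X, the shortest chain, from 15191108 to 15201145, was covered over 71.0% by member peaks alone. A chain of 12 on 3R, from 12046647 to 12086675, reached 70.8% with 8 member peaks and 4 wider ones. At the other end lay chains of 5 peaks on 2R from 11260362 to 11297974 (15.0%), of 6 on 3L from 16869837 to 16909851 (15.2%) and of 5 on 2L from 5036996 to 5064803 (17.5%). None of these sparse chains held a peak wider than 2104 bp.

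Gaps within the chains ranged from 9 to 9987 bp, with a median of 2442.5 bp over 948 gaps (quartiles 867 and 5197.75 bp). In chains of 2 to 4 peaks the median was 3102 bp over 1572 gaps. Gaps of 250 bp or less made up 10.2% of the gaps in the large chains and 8.40% of those in the small ones, and gaps over 5000 bp made up 25.8% and 33.8%. The rule selects for short gaps, so these differences describe the selection. Between a pair of neighbouring member peaks the median gap was 2526 bp (683 pairs). It was 2305 bp between a member peak and a wider peak (241 pairs) and 1335.5 bp between 2 wider peaks (24 pairs). Gaps of 1000 bp or less were 26.2%, 29.9% and 41.7% of these kinds of pair.

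**Figure D2:**
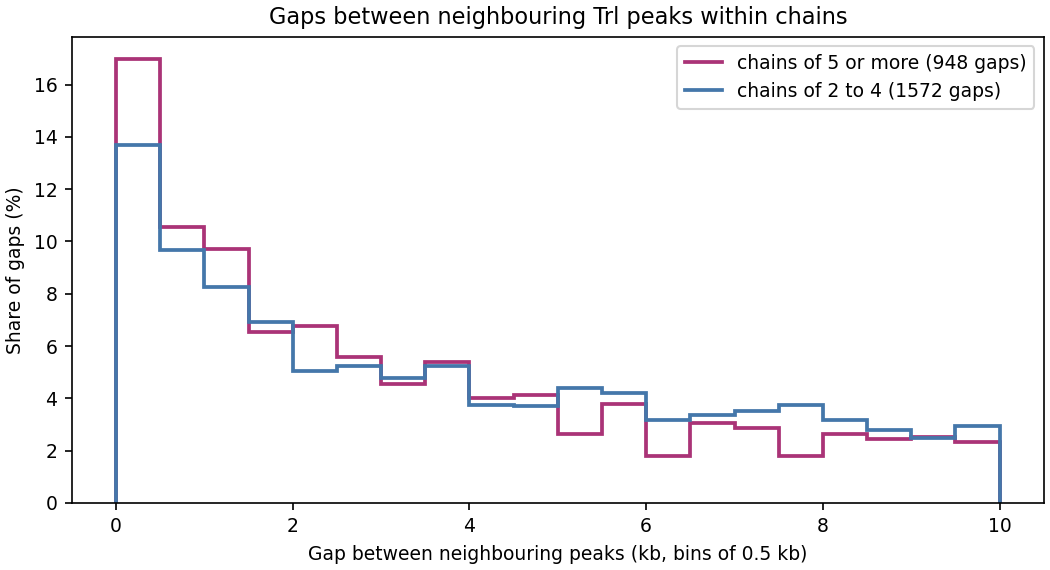
Share of gaps (vertical axis, %) by gap length between neighbouring peaks (horizontal axis, kb, in bins of 0.5 kb) in chains of 5 or more and of 2 to 4 peaks. Both curves are highest in the first bin and are lower towards the 10 kb limit, and every bin holds gaps of both kinds of chain.

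Short gaps raise the question of how many separate sites a chain holds. When peaks 1000 bp or less apart were joined into 1 region, 102 of the 169 chains (60.4%) still had 5 or more regions. Within 1000 bp of a wider peak lay 70 member peaks (7.35%). Another 316 (33.2%) were that close to another member peak only, and 566 (59.5%) had no peak within 1000 bp on either side. The members that close to a wider peak were 1288.5 bp wide at the median and scored 598.175, against 1258.5 bp and 656.97 for members that close to another member only and 1213.5 bp and 477.435 for members with no peak so near. Members next to a wider peak but further than 1000 bp from it scored 683.655 at the median. Whether close neighbours are parts of 1 bound region was not tested.

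Member peaks were 299 to 2496 bp wide, with a median of 1228 bp (quartiles 984.25 and 1625.5 bp). The authors' score of each peak has no stated scale and serves here only to rank peaks. For the member peaks its median was 563.37, the lowest was 50.11 and the highest 3171.93. Of the 952 member peaks, 466 (48.9%) scored at or above 592.915, the median of the 6 arms, where 50% of all peaks do by definition. A score of 3100 or more, which 17.3% of all peaks reached, was given to 116 member peaks (12.2%), of which 109 stood at exactly 3100, a value shared by many peaks of the list. Both shares are lowered by the width limit, since wide peaks score high: of the 165 wider peaks in the same chains 119 (72.1%) scored 3100. Width and score rose together among member peaks (Spearman's rho = 0.77 over 952 peaks of the same sample, given as a description).

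Set beside peaks of the same width range elsewhere on the arms, member peaks were somewhat wider and had higher scores as a set. The 3696 peaks under 2500 bp outside such chains were 1161 bp wide at the median and had a median score of 422.63, and 43.3% of them scored at or above the median of the 6 arms. Among the 1375 of these that stood alone, the corresponding values were 1128 bp, 416.11 and 42.8%. The set difference was 5.66 percentage points, and width moved with it. Within bands of similar width the members' share at or above the median exceeded that of the other peaks by 0.126 to 1.68 points. In the narrowest bands this excess rests on few peaks. Under 800 bp, 2 of 65 members and 9 of 305 others scored so high, and from 800 to under 1000 bp 6 of 190 and 21 of 869. Against single peaks, the members' share was higher in the 2 bands under 1000 bp and lower in the other 4. These were 35.1% against 38.7%, 65.9% against 68.0%, 80.4% against 82.8% and 94.4% against 96.0%, from narrow to wide. The median scores of members were below those of all other narrow peaks in every band but the widest: 64.99 against 70.18 under 800 bp, 118.36 against 140.74 from 800 to under 1000 bp, 347.81 against 411.36 from 1000 to under 1200 bp, 825.315 against 1046.29 from 1200 to under 1500 bp and 1501.12 against 1764.78 from 1500 to under 2000 bp. From 2000 to under 2500 bp it was 3095.98 against 2969.23. At a given width, member peaks thus did not carry uniformly higher scores than peaks outside the chains.

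**Figure D3:**
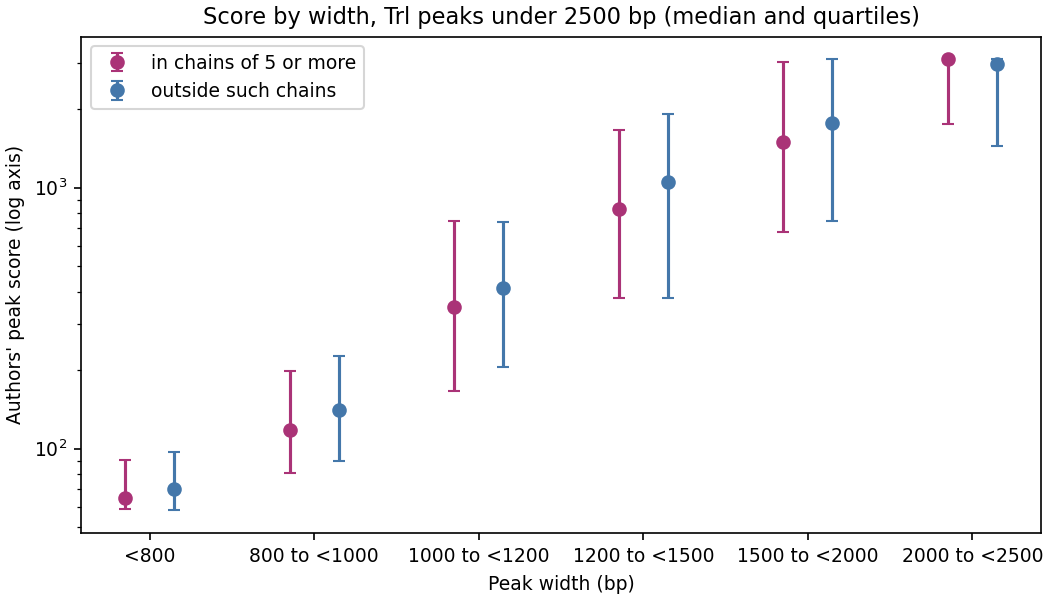
Authors' peak score (vertical log axis) by peak width (horizontal axis, bp) for the 952 member peaks and the 3696 other peaks under 2500 bp. Points are medians and bars run from the lower to the upper quartile, and the bars of both sets overlap in every band.

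Arm 2L stood apart from the other arms in this comparison. Its 120 member peaks had a median score of 365.19, below the 479.255 of its other narrow peaks, and 38.3% of them scored at or above the median of the 6 arms against 45.6%. On 2R the medians were 614.62 for members and 424.635 for the others, on 3L 627.18 and 450.925, on 3R 587.055 and 422.78, and on X 544.095 and 363.88. Members had the higher median on these 4 arms. Median widths differed in the same directions. On 2L members were narrower than the other narrow peaks, at 1172.5 against 1202 bp. Members were wider on 2R (1302 against 1213.5 bp), 3L (1229 against 1174 bp), 3R (1263.5 against 1164 bp) and X (1154.5 against 1057 bp). The arms were not compared at equal width. The difference between arms was not tested.

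Most chains held both high and low scores, as most chains of 4 peaks also did. In 127 of 169 chains (75.1%) at least 1 peak of any width scored 3100 or more, and 120 of these chains also held a peak below the median of the 6 arms. The lowest score of a chain was under 100 in 102 chains. Counting member peaks alone, 159 chains had members on both sides of that median, 7 had all members at or above it and 3 had all members below it. The median over chains was 3100 for the highest member score and 77.62 for the lowest. A score of 3100 or more was reached by a member peak in 86 chains. A chain with more peaks has more chances to hold both, and the counts rose with size. Counting peaks of any width, scores lay on both sides of the median in 45.9% of chains of 2, 75.5% of chains of 3, 89.4% of chains of 4, 94.4% of chains of 5 and 94.9% of larger chains. These counts are a description only.

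**Figure D4:**
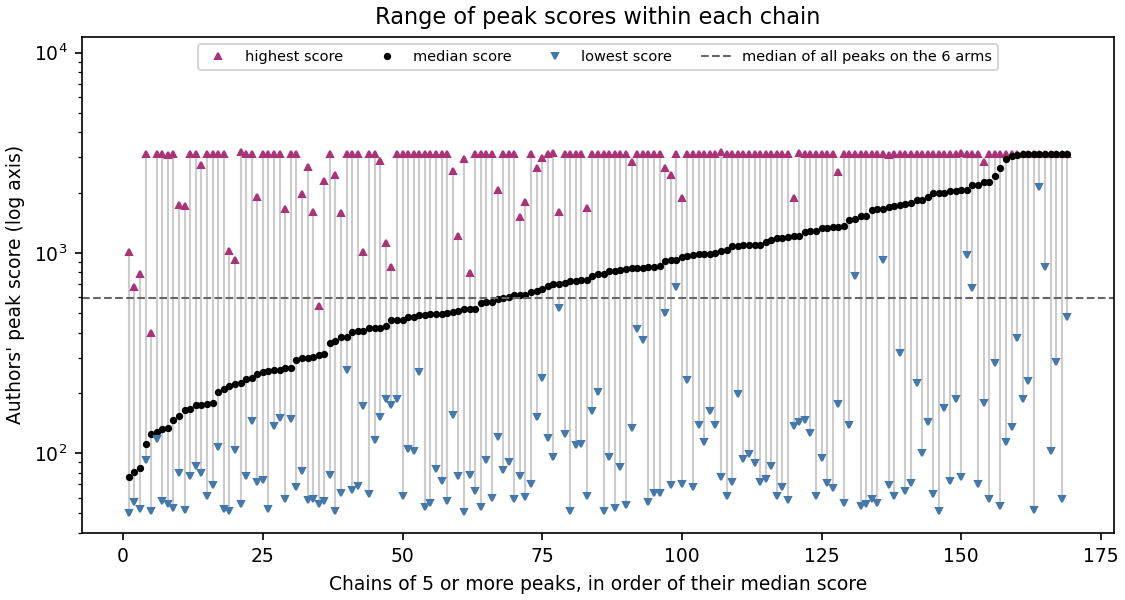
Lowest, median and highest authors' peak score (vertical log axis) of each of the 169 chains, ordered by their median score (horizontal axis); all peaks of a chain count, whatever their width. Most grey lines cross the dashed line at 592.915, the median of the 6 arms, and only 2 chains lie wholly below it.

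Few chains had all their peaks on 1 side of the median of the 6 arms, and even these could span a wide range of scores. No peak reached the median of the 6 arms in the chains on 3L from 16869837 to 16909851, whose highest score was 543.36, and on 2L from 5036996 to 5064803, whose highest was 398.41. Both are among the 3 most sparsely covered chains given above. All peaks scored at or above the median in 7 chains, 3 on 2R, 3 on 3R and 1 on 3L. The one with the highest floor, singled out after its values were seen, lay on 2R from 6097769 to 6127093: its 6 peaks were all members, 4 of them stood at 3100 or more, and the lowest scored 2143.98.

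Members with high and low scores followed each other in mixed order. Of 683 adjacent pairs, 170 had both scores at or above the median of the 6 arms, 176 had both below, and 337 had 1 on each side. Spearman's rho between the scores of neighbours was -0.02 over these pairs, and 0.03 between their widths. Pairs of a chain share peaks and a library, so these coefficients are descriptions only. For 1261 such pairs of narrow peaks in chains of 2 to 4, rho was 0.05 for scores and 0.12 for widths.

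Member peaks at the ends of the chains had lower median scores than those inside. The 297 member peaks at either end of a chain were 1185 bp wide at the median and had a median score of 405.91, and 43.1% of them scored at or above the median of the 6 arms. The 655 inner member peaks had medians of 1263 bp and 627.18 and a share of 51.6%. The step lay between the outermost peak and the next: the median score was 674.26 for the 293 members in place 2 from an end, 592.605 for the 218 in place 3 and 575.845 for the 144 further inside. The quartiles overlapped widely, with 123.33 and 1576.03 at the ends and 170.86 and 1625.24 in place 2. At the upper end of the scale no such step appeared, since 12.1% of the outer and 12.2% of the inner member peaks scored 3100 or more. By rule, an end peak has no other peak within 10 kb on 1 side. Narrow single peaks, with none on either side, had a median score of 416.11 and a share of 42.8%. For narrow peaks in chains of 2 to 4 these were 427.14 and 43.6%. Outer and inner members were not compared at equal width. The widest peak of a chain lay inside it in 125 of 169 chains (73.96%). The highest-scored peak lay inside in 102 chains (60.4%), with ties between an inner and an outer peak counted as not inside. This way of counting lowers the value, and 66 chains held 2 or more peaks at 3100 or more, where such ties can occur. Inner peaks were 69.7% of all peaks in the chains. That share is taken over peaks, so larger chains weigh more in it, and it is not directly comparable with the shares of chains.

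By chain size, the members' median score was 547.72 in chains of 5 to 9 peaks and 629.975 in chains of 10 or more, with shares at or above the median of 48.1% and 52.9%. The higher value came from the 9 chains of 10 and 11 peaks, whose 88 members had a median of 814.6. The 86 members in the 8 chains of 12 to 15 had a median of 351.74, below that of the chains of 5 to 9. The cut at 12 peaks is not part of the rule, and the difference between these few chains was not tested. The peaks just outside the rule, in the 141 chains of 4, numbered 492 under 2500 bp, with medians of 1201.5 bp in width and 418.775 in score. In the chains of 5 just inside it, the 304 members had medians of 1204.5 bp and 484.95. Chains of 4 covered a median of 36.0% of their length and chains of 5 a median of 38.2%. A peak scored 3100 or more was present in 74 of 141 chains of 4 (52.5%) and in 45 of 71 chains of 5 (63.4%), which also have 1 more peak each.

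The long chains show this mixture peak by peak. On 3L, the chain of 15 from 7796938 to 7862450 began with 2 wide peaks of 3308 and 3598 bp, both scored 3100 and 265 bp apart. Then came 8 member peaks of 766 to 1336 bp, scored in order 298.36, 207.9, 67.83, 1015.13, 263.72, 186.92, 1193.15 and 2496.27. Another wide peak of 3292 bp followed, again scored 3100, and the chain closed with 4 members scored 972.32, 238.4, 3100 and 97.47. Of the 12 members 1 thus reached 3100, and it was 1611 bp wide.

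The chain of 15 on X, from 3565299 to 3618682, was dense in its first part and thin in the middle. Its first 8 peaks lay 30 to 1169 bp apart and included 3 wide peaks of 5754, 4197 and 4066 bp, all scored 3100. The 5 members among these 8 scored 3100, 195.67, 380.85, 2782.87 and 3100. Then gaps of 5935 and 9769 bp led to narrow members of 629 and 747 bp, followed by another of 801 bp, and these 3 scored 104.91, 51.53 and 88.96. The last 4 were members again, scored 3100, 631.06, 720.13 and 100.58.

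On 2R, the chain from 7479381 to 7554893 was dominated by its 5 wide peaks, which measured 3737, 6136, 3316, 10387 and 2575 bp. The 10 members between them scored 63.34, 81.76, 70.52, 3100, 718.16, 197.79, 269.46, 628.89, 860.71 and 3100. The lowest of these stood near wide peaks, as did some higher ones. The member scored 63.34 lay 1298 bp before the peak of 6136 bp, and the one scored 81.76 lay 14 bp behind it. The one scored 70.52 lay 133 bp before the peak of 3316 bp. Behind the peak of 10387 bp, after 138 bp, came the one scored 718.16. Over all chains, members within 1000 bp of a wider peak had a median score of 598.175, so low scores there were not general. The highest, 3100, also stood near a wide peak, 1128 bp before the peak of 10387 bp and 768 bp before that of 2575 bp.

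The next chains also mixed wide peaks and members. In the chain of 14 on X (2161741 to 2250619), a pair of wide peaks of 5899 and 8056 bp, both scored 3100, stood between members that scored 83.71 to 762.33, apart from 1 member at 3100. The chain of 13 on 2L (2874091 to 2959631) held 1 wide peak of 5465 bp, scored 3100, and 12 members from 60.85 to 2325.07. Some wide peaks scored below members of their chain, such as that of 3316 bp in the chain of 15 on 2R, at 2722.88. The same was seen on 3R. In the chain of 12 from 17405570 to 17463638, the 4 wide peaks scored 2966.25, 2059.15, 3100 and 3100, and 2 of the 8 members, which ran from 100 to 3100, stood at 3100. In the chain of 12 from 12046647 to 12086675, the 4 wide peaks scored 1422.75, 3100, 3100 and 222.52, and the 8 members ran from 94.8 to 3100.

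Other long chains had no wide peak at all. In the chain of 12 on X from 12525672 to 12568857, all peaks were members. The first 8 scored 55.93 to 384.83, and they were followed by peaks scored 3171.65, 198.33, 3100 and 2116.5. The chain of 11 on 2R from 3609450 to 3674378 held members from 57.34 to 3100, and that on 3L from 15064921 to 15102155 members from 95.55 to 3100. Among the 17 chains of 10 or more, 2 had no peak at 3100 or more. They lay on 3R from 7772729 to 7819721, with 11 members of at most 2827.57, and on 3L from 1626629 to 1675338, with 10 members of at most 1019.39.

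**Figure D5:**
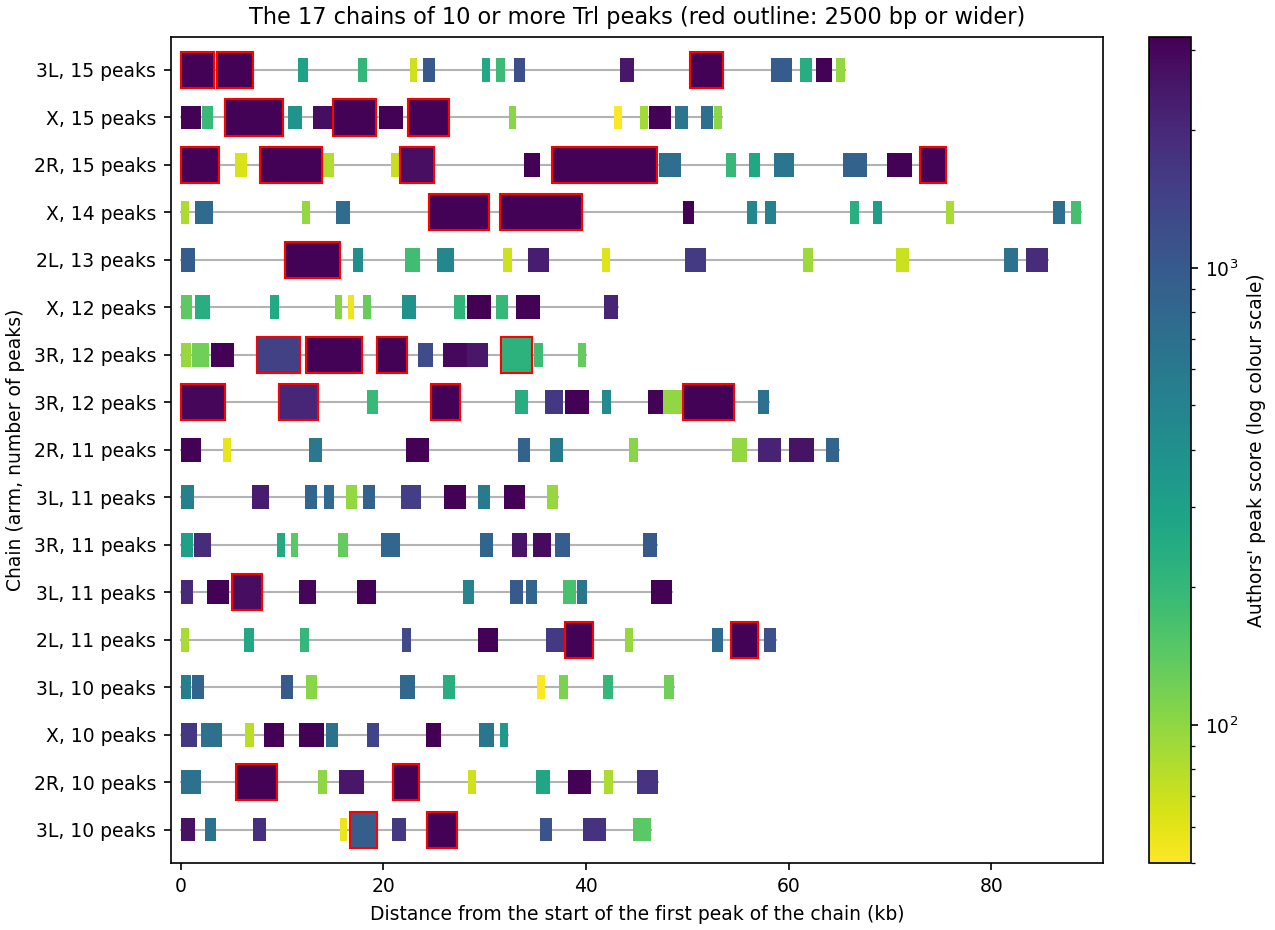
Maps of the 17 chains of 10 or more peaks, drawn to scale as distance from the chain's first base (horizontal axis, kb); each box is a peak, coloured by the authors' score on a log scale, and boxes with a red outline are peaks of 2500 bp or wider. Dark and light boxes stand in the same chain, and 6 of the chains have no outlined box.

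In 74 of the 169 chains all peaks were members, 48 chains held 1 wider peak and 47 held 2 or more. The wider peaks measured 3413 bp at the median, and 124 of 165 (75.2%) lay inside their chain, as did 69.7% of all peaks in the chains. The share of peaks of 2500 bp or more was 14.9% in chains of 5 to 9 peaks, 14.3% in chains of 10 or more, 10.4% in chains of 2 to 4 and 7.22% among single peaks. Widths set the gaps that build the chains, so this share is tied to the rule.

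The extremes among the members were spread over 5 arms. The highest scores were 3171.93 (X, 2551967 to 2553419), 3171.65 (X, 12553890 to 12556326), 3154.79 (3L, 15506921 to 15508438), 3148.66 (3R, 14756704 to 14758962) and 3139.57 (3R, 9619742 to 9621390). Their widths were 1453 to 2437 bp. In all, 7 members scored above 3100 and 109 stood at exactly 3100, and none of the 165 wider peaks in the chains exceeded that value. With no stated scale, scores above 3100 may not mark stronger peaks than a score of 3100. The lowest were 50.11 (2R, 11297191 to 11297974), 50.76 (2L, 5531897 to 5532617), 51.24 (2R, 10381479 to 10382226), 51.27 (3L, 1661810 to 1662561) and 51.43 (X, 8789848 to 8790565), all 718 to 784 bp wide. At the width limit, the nearest members measured 2478 bp (2R from 6441044), 2480 bp (X from 15191108) and 2496 bp (2R from 8877650), each scored 3100. The nearest peaks above it measured 2508 bp (2L from 18561360, score 2456), 2534 bp (3L from 9332340, score 3100) and 2545 bp (2R from 8871547, score 3100).

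Some chains were themselves neighbours. The median distance from a chain to the next on its arm was 477 kb over 164 pairs, but 19 pairs lay within 50 kb. The nearest pair was on 3R, where the chain of 12 ending at 12086675 was followed after 10.7 kb by a chain of 5 that ended at 12118203. A gap of 11.0 kb separated 2 chains of 6 on X, the first from 1833867 to 1846422 and the second ending at 1870949. On 2R, 11.3 kb separated a chain of 5 from 14285354 to 14311159 from another chain of 5. On 3L, 11.8 kb lay between the chain of 11 from 18746485 to 18794994 and a chain of 7. The limit of 10 kb alone decided that these were counted apart: the smallest gaps left unjoined anywhere were 10009, 10023 and 10038 bp, and the largest joined were 9998, 9989 and 9989 bp.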

How the data were processed

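Trl ChIP-seq of embryos of 16 to 24 h was represented by 1 peak list. Per the file headers the authors called the peaks with MACS, and the submitters' processing notes name Bowtie and build BDGP5. For versions, settings, read numbers and the handling of replicates, no statement was found: not given in the sources used here. The score deposited by the authors for each peak has no stated scale. Starts were read as counted from 0.

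Peaks were sorted, chained across gaps of at most 10000 bp and split at a width of 2500 bp. Chaining was tested on simulated lists with known chains. No gene or sequence was assigned, because the gene table at hand belongs to another build, and the planned description of sequence and gene features was not run. The rule for named sites took the chains with the most peaks, the longest, shortest, most and least covered, and the members with extreme scores or widths nearest to the limit. The members and the comparisons were chosen with earlier results of these data known. The rule used position and width, and the score comes from the same peak calls, so no test was made. Arm lengths are spans from the first to the last peak. Alternatives were other gaps, chain sizes and width limits, higher-scored peaks only, merging within 1000 bp, single peaks, width bands and arms. Python 3.11.15, numpy 2.4.6, pandas 2.3.3, scipy 1.17.1 and matplotlib 3.10.9 were used.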

Additional observations from a re-analysis of the deposited data

Results flagged for a closer look

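Outside the 6 arms used for the chains, the list held 7 peaks on heterochromatic or unplaced sequences. The largest chain among these held 2 peaks, below the 5 that the rule asks for. There was no control list to set them against.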

How the results depend on the processing

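The counts follow the limits of the rule. With gaps up to 5000 bp there were 373 members in 75 chains (median gap 1472 bp, median coverage 50.6%), and with gaps up to 20000 bp 2229 members in 326 chains (4578 bp, 22.4%). Chains of 4 or more gave 1444 members in 310 chains, and chains of 6 or more gave 98 chains. Merging within 1000 bp left 457 members in 102 chains with a median gap of 3754.5 bp. Chains built only from peaks scored at or above 592.04, the median of the whole list, numbered 34 with 157 members, a median score of 1630.27 and a coverage of 44.8%. The highest-scored peak lay inside 32.4% of these chains against 60.4% of all 169. In both, ties with an outer peak counted as not inside, which lowers the share. Ties were not counted for the 34 chains, so the lower share need not reflect the place of the peaks. The median score was 762.33 with no width limit and 402.94 under 2000 bp. The members' excess in peaks at or above the median was 5.66 points. By width it was 0.126 points under 800 bp, 0.741 up to 1000 bp, 1.25 up to 1200 bp, 0.540 up to 1500 bp, 1.38 up to 2000 bp and 1.68 up to 2500 bp, and on arm 2L it turned to -7.22 points. The other 32 values moved by less than 1.5 times (counts) or stayed in a 95% interval around the main value. These intervals treat the peaks, gaps or chains of 1 list as independent. They serve only to sort the values and do not measure how well a result would repeat. The cause was not tested. No paired analysis was possible because the list is 1 sample without replicate values, and none could be left out. What depth limits is unknown.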
